A study of Mus musculus with 16 samples.

Results

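The dorsal hippocampus of mice carrying a GFP control virus was compared between 5 days and 1 day after contextual fear conditioning, and its transcriptome at these times was described. The members are the 8 bulk RNA-seq libraries labelled Control, 4 at 1 day (Control_1d) and 4 at 5 days (Control_5d), out of 16 libraries in the series. The other 8 libraries come from mice given a virus for Dnmt3a2, a shorter form of a DNA methyltransferase, and are used here to share the estimate of the spread and to set the same day comparison beside the control one. In all 4 groups a recombinant adeno-associated virus was injected into the dorsal hippocampus, training followed 3 weeks later, and tissue was taken at 1 or 5 days. All of these mice were therefore injected and trained, and a group without conditioning is not among the libraries analysed here. The labels give no strain, sex or age and no promoter for the virus. They do not say whether each library is 1 animal, so the p-values measure the spread between libraries, which may be partly technical.

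Contextual fear conditioning pairs a place with a mild shock, and the memory of the place depends at first on the hippocampus. Within minutes to hours, active neurons switch on immediate early genes such as Fos, Arc and Npas4, whose RNAs are short-lived. Over the following days the memory is thought to come to rest increasingly on the cortex, a process called systems consolidation. The dorsal hippocampus holds pyramidal neurons in CA1, CA2 and CA3, granule neurons of the dentate gyrus, interneurons, glia and vessels, and it borders the choroid plexus and ependyma of the ventricle.

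The control libraries held 28.6 to 29.9 M estimated counts, and 14047 to 14304 genes reached a normalised read count of 1 CPM (counts per M of library total, TMM-scaled) in each. Dnmt3a, the gene whose shorter form the other virus carries, was at 33.6 to 35.4 CPM in the 1 day libraries and 32.7 to 37.7 CPM in the 5 day libraries, so no control library had a raised level. A bulk library cannot tell fewer cells of a type from less RNA per cell, and this holds for every list of cell type markers below.

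Several libraries stood apart from the rest of their group. Control_1d replicate 1 was high in genes of the interferon response and in immunoglobulin genes. Its score on 52 interferon and antigen presentation genes (the mean over members of log2 CPM minus the mean over the 8 control libraries) was 0.742. The other 3 libraries at 1 day scored -0.34, -0.372 and -0.1, and those at 5 days scored -0.026, -0.192, 0.221 and 0.068. This library held the highest value of 45 of the 52 genes. Ifit1, an interferon-induced RNA-binding protein, was at 2.998 CPM there and at 1.078, 1.443 and 1.804 CPM in the other 1 day libraries, against 1.594 to 2.357 CPM at 5 days. Ifit3, its partner, was at 9.785 CPM there and at 4.431 to 6.897 CPM in the other 7.

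Summed immunoglobulin genes reached 950.2 CPM in Control_1d replicate 1, against 47.12 to 77.61 CPM in the other 1 day libraries and 56.04 to 223.8 CPM at 5 days. Igkc, the kappa light chain constant region, was at 250.5 CPM in that library, against 5.461 to 17.17 CPM in the other 3 at 1 day and 10.67 to 50.59 CPM at 5 days. Jchain, the joining chain of secreted antibody, was at 25.99 CPM there and at 1.133 to 7.138 CPM in the other 7. Antibody RNA was also high in replicate 1 of both Dnmt3a2 groups, at 663.0 CPM at 1 day and 456.9 CPM at 5 days, against 39.58 to 105.7 CPM in the other 6 Dnmt3a2 libraries.

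The promoters of 3 genes of the interferon list are shown, Ifit1 and Ifit3 because they were highest in Control_1d replicate 1 and Isg15, which was not, as a member with overlapping matches. The sequences are from RefSeq on build GRCm38.p6, 5′ to 3′ on the strand of the gene, and end before the transcription start. Capitals mark matches to GAAA, any 2 bases (NN) and GAAA again, or to the reverse complement (TTTC, NN, TTTC), a core of the element bound by interferon-stimulated transcription factors. The Ifit1 stretch is chr19:34640755-34640843 on the plus strand, the Ifit3 stretch is chr19:34583343-34583446 on the plus strand, and the Isg15 stretch is chr4:156200845-156200926 on the minus strand. In Isg15 the 3 matches overlap one another.
Ifit1: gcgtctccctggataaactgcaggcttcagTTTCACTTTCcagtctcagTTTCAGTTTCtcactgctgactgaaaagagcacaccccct
Ifit3: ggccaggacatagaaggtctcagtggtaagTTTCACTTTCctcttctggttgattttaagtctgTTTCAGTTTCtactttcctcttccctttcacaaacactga
Isg15: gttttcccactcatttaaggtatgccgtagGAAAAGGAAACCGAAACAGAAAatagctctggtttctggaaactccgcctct
Searching both strands of the 300-base windows from 250 bases before to 50 after each start, the pattern was found for 20 of the 39 interferon list genes that matched the promoter table (51.3%), and for 3.73% of the 12203 tested genes that matched it. A match describes these letters only. Isg15 itself was low, at 0.2022 to 0.893 CPM, and was highest in Control_1d replicate 3.

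Control_5d replicate 3 differed in another way. Ttr, encoding the thyroid hormone carrier that choroid plexus secretes, was at 157.2 CPM there, at 10.86, 9.296 and 5.511 CPM in the other 5 day libraries, and at 6.194, 6.943, 9.926 and 32.82 CPM at 1 day. Its score on 23 choroid plexus genes was 1.206, and 15 of the 23 were highest in it. Haemoglobin Hbb-bs was at 228.0 CPM there and at 75.16 to 121.5 CPM in the other 7 libraries. Its score on markers of ventral hippocampus and subiculum was -0.451, the lowest of the 8.

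The same library was low in several genes of the Y chromosome. Ddx3y, an RNA helicase, was at 8.661 CPM there and at 22.9 to 31.08 CPM in the other 7. Kdm5d, a histone demethylase, was at 3.838 CPM there and at 10.76 to 14.58 CPM elsewhere, and Uty and Eif2s3y were at 2.464 and 3.732 CPM. The deviation of this library was taken from the median of the other 5 day libraries, gene by gene. Its median for each autosome and X stayed between -0.055 and 0.043 on the log2 scale, while the 7 Y genes had a median of -1.371. Among those 7 genes, Gm47283, Gm21860 and Gm37158 were not low there. They were at 46.72, 2.852 and 1.796 CPM, within the range of the other libraries. The part of these features in the results below was not tested beyond leaving the libraries out.

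**Figure D1:**
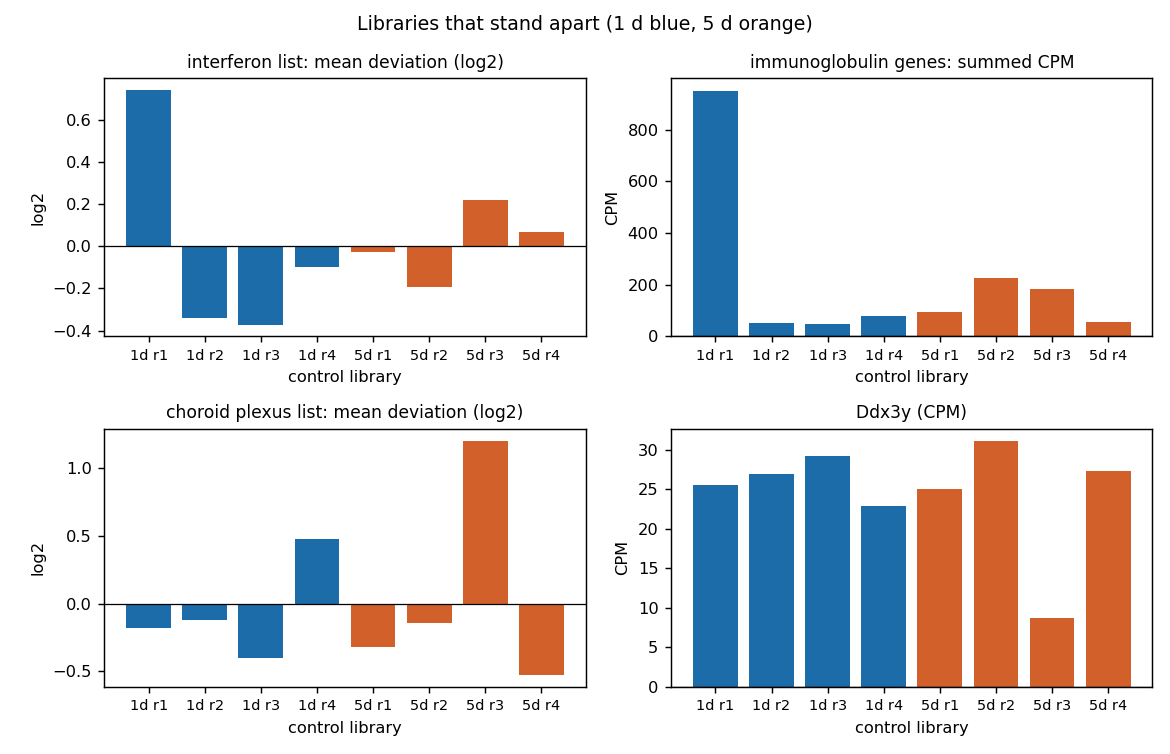
Bars give 4 measures in each of the 8 control libraries, 1 day in blue and 5 days in orange: list scores on the log2 scale (left) and CPM (right). Control_1d replicate 1 reaches 0.742 on the interferon list and 950.2 CPM of immunoglobulin RNA, and Control_5d replicate 3 reaches 1.206 on the choroid plexus list and 8.661 CPM of Ddx3y.

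Levels of different genes were compared as CPM per kilobase of exons. Leaving aside the genes of the mitochondrial chromosome and a pseudogene resembling them, the highest level in the control hippocampus was that of Nrgn. This gene, encoding neurogranin, the postsynaptic calmodulin-binding protein, was at 1887 ± 129.9 CPM per kb (SD, n = 8). Camk2a, the calcium/calmodulin-dependent kinase central to synaptic potentiation, followed at 1138 ± 47.29 CPM per kb, and Calm3, a calmodulin gene, at 1060 ± 69.99 CPM per kb. Ncdn, a neuronal regulator of that kinase, was at 1042 ± 61.3 CPM per kb. With the longest transcript in place of all exons Camk2a stood at 1710 CPM per kb. Hpca, the calcium sensor hippocalcin, was at 745.7 ± 64.28 CPM per kb and Cnih2, an auxiliary subunit of AMPA receptors, at 719.4 ± 69.37 CPM per kb.

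Most mitochondrial mRNAs stood above all of these, with mt-Atp6 at 18060 ± 1935 and mt-Co1 at 16200 ± 1736 CPM per kb. Not all did, and mt-Nd6 averaged only 13.81 CPM at 1 day and 19.25 CPM at 5 days. The 10 genes of highest CPM held 11.67% of all CPM and the first 100 held 25.5%, and 668 genes were needed for the first 50% of it. A mean of at least 1 CPM was reached by 14218 genes, 10 CPM by 9471, 100 CPM by 2032 and 1000 CPM by 94. Protein-coding genes held 97.8% of the CPM.

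The markers of the labelled tissue were present. Wfs1, a marker of CA1 pyramidal neurons, was at 80.32 ± 8.766 CPM per kb, Pcp4, a marker of CA2, at 81.23 ± 14.34, and C1ql2, a secreted synapse organiser of dentate granule neurons, at 92.36 ± 10.46. Among interneuron markers the neuropeptides Cck and Sst were at 316.7 ± 21.93 and 283.5 ± 17.75 CPM per kb. Glul, the glutamine synthetase of astrocytes, was at 320.4 ± 21.32, Mbp, a myelin protein of oligodendrocytes, at 214.9 ± 49.68, and C1qa, a complement component of microglia, at 59.25 ± 5.036 CPM per kb. Fezf2 and Tbr1, transcription factors of deep cortical layers used here as markers of neocortex, were at 17.54 ± 2.359 and 14.85 ± 0.8408 CPM per kb, and their source was not tested.

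Among glutamate receptor genes, Gria1, an AMPA receptor subunit, was at 187.3 ± 9.455 CPM per kb. The obligatory NMDA receptor subunit Grin1 was at 79.9 CPM per kb and the subunits Grin2a and Grin2b at 15.99 and 14.8 CPM per kb. With the longest transcript in place of all exons Gria1 stood at 204.1 and Grin1 at 181.2 CPM per kb, so the distance between them depends on the length used. For GABA, the metabotropic receptor subunits Gabbr1 and Gabbr2 were at 106.0 ± 3.965 and 77.11 ± 2.99, and Gabra5, a subunit of extrasynaptic receptors, was at 90.35 ± 2.784 CPM per kb.

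Most immediate early genes were measurable at these days, over a wide range of levels. Jund was highest at 161.8 ± 13.05 CPM per kb and Arc, the activity-regulated cytoskeletal protein, followed at 51.26 ± 12.99, while Fos was at 2.805 ± 0.5279 and Npas4 at 1.396 ± 0.2473 CPM per kb. Among the enzymes of DNA methylation, the maintenance enzyme Dnmt1 was at 4.818 ± 0.1057 CPM per kb and Dnmt3a at 2.1 ± 0.09104. This gap depends on the exon length used. Before division by length Dnmt1 and Dnmt3a averaged 35.54 and 34.95 CPM, and with the longest transcript they stood at 6.055 and 3.609 CPM per kb. Dnmt3b, the other de novo enzyme, was at 0.06612 ± 0.02891 CPM per kb. Of the enzymes that oxidise methylcytosine, Tet3 was at 1.899 ± 0.1751 and Tet1 at 0.3583 ± 0.02731 CPM per kb.

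**Figure D2:**
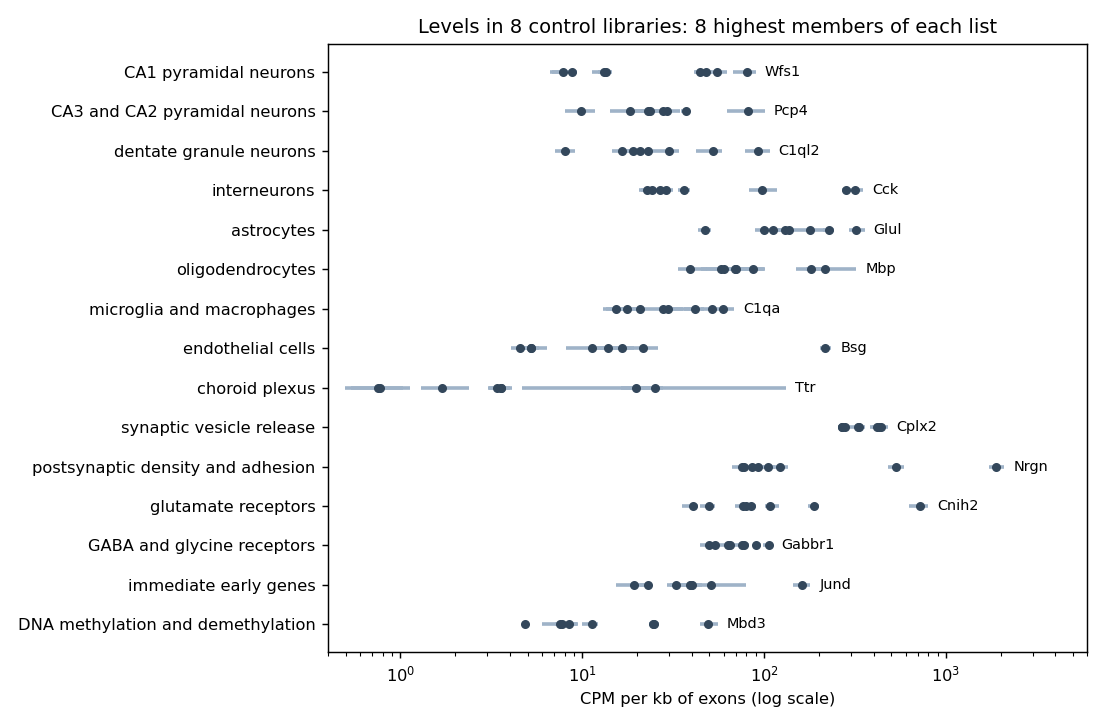
Each point is the mean level of a gene over the 8 control libraries in CPM per kb on a log axis, with the lowest and highest library as the line, for the 8 highest members of 15 lists; the highest is named. Nrgn at 1887 CPM per kb stands highest, and Ttr spans 4.646 to 132.5 CPM per kb.

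No gene passed the test between 5 days and 1 day in the control hippocampus. Of 16899 genes tested with edgeR's quasi-likelihood test, 0 passed a threshold of 0.05 on the p adjusted by Benjamini and Hochberg's method (0.0%), 0 higher and 0 lower, and the smallest adjusted p was 0.999. At an unadjusted p under 0.05 there were 598 genes (3.54%), 273 higher (1.62%) and 325 lower (1.92%) at 5 days. DESeq2's Wald test, also with 0 calls, had 608 genes at an unadjusted p under 0.05, and its smallest adjusted p was 0.0677. The 4 libraries of one day lay wholly above or below the 4 of the other for 406 genes (2.4%), 191 higher (1.13%) and 215 lower (1.27%) at 5 days.

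These libraries bound the size of the differences. The 95% interval of the fold change lay within 1.5-fold either way for 88.0% of the 14218 genes that averaged 1 CPM or more, and within 2-fold for 98.0%. At 10 to 100 CPM the share within 1.5-fold was 98.5%, and at 1 to 10 CPM it was 66.8%. The estimate itself passed 1.5-fold for 87 of the 14218 genes and 2-fold for 28. Leaving out 1 library at a time gave 0 calls each time, with 377 genes at an unadjusted p under 0.05 without Control_5d replicate 2 and 996 without Control_5d replicate 3. With Control_5d replicate 3 and Control_1d replicate 1 both left out, 1292 genes (7.57%) reached it, again with 0 calls. These 2 were picked for the values described above. By another measure, genes over 2-fold from the median of the other libraries of the day, Control_1d replicate 3 deviated most. It had 152 such genes, against 99 in Control_5d replicate 3 and 123 in Control_1d replicate 1.

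**Figure D3:**
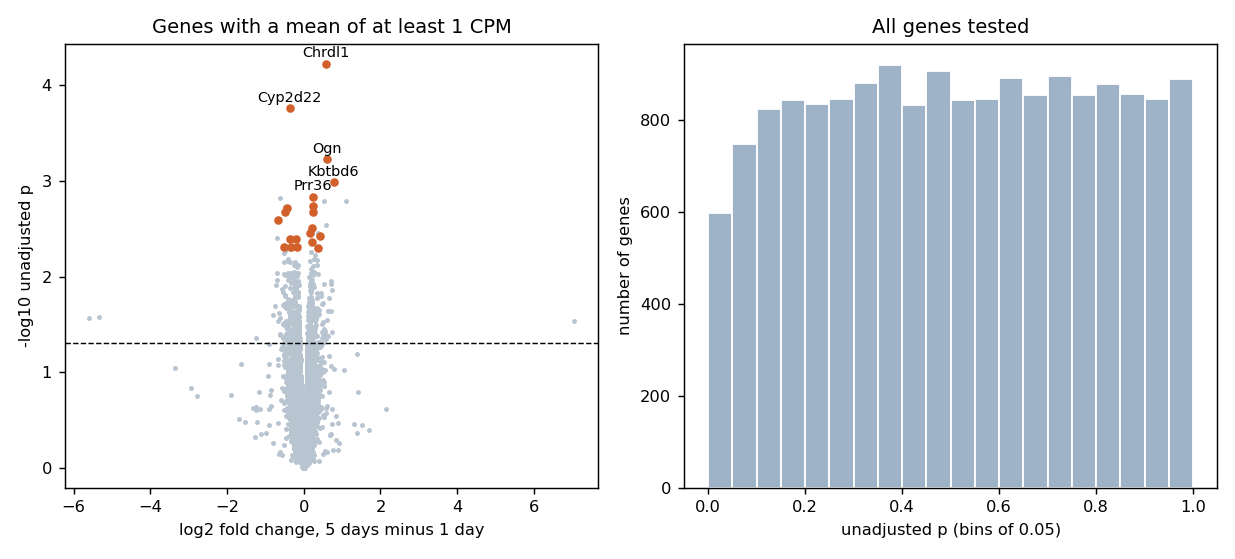
Left, each point is a gene averaging 1 CPM or more, with its log2 fold change on the x axis and -log10 of its unadjusted edgeR p on the y axis; the dashed line marks 0.05 on that scale and orange points are the 20 genes described by library. Right, bars count all 16899 genes in p bins of 0.05, with 598 genes in the first bin and 749 or more in each of the others.

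Since no gene was called, the 20 genes with the smallest unadjusted p are given as values and not as changes. Chrdl1, which encodes a secreted antagonist of bone morphogenetic proteins made by astrocytes, lies at chrX:143285674-143394262 (GRCm38.p6). It was at 4.579, 5.055, 4.259 and 4.198 CPM in the 1 day libraries and at 6.949, 6.242, 7.71 and 6.343 CPM at 5 days. The days did not overlap, and the fold was 1.505 with a 95% interval of 1.271 to 1.781 (unadjusted p = 5.98e-05, edgeR adjusted p = 0.999). In the Dnmt3a2 libraries its log2 fold change was 0.16.

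Cyp2d22, a cytochrome P450, was at 28.63, 34.95, 35.65 and 32.23 CPM at 1 day and at 24.02, 23.61, 27.85 and 26.2 CPM at 5 days. Every 5 day library lay below every 1 day library, and the fold was 0.7734 (95% interval 0.6882 to 0.869). In the Dnmt3a2 libraries its log2 fold change was -0.20, beside -0.37 here. Ogn, the small proteoglycan osteoglycin and 1 of the meninges and fibroblast markers, was at 6.128, 5.763, 3.469 and 6.766 CPM at 1 day and at 8.352, 7.902, 8.168 and 8.977 CPM at 5 days. Its days did not overlap. The span of its gene, introns included, overlaps that of Cenpp on the other strand. Whether their exons overlap was not examined, so its values are uncertain to the extent that reads were shared.

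Nos1, the neuronal nitric oxide synthase found in a class of interneurons, was at 115.5, 113.9, 111.5 and 111.9 CPM at 1 day. At 5 days it was at 136.7, 137.6, 132.8 and 128.6 CPM, with no overlap, a fold of 1.183 and a 95% interval of 1.073 to 1.305. Neurod1, a transcription factor of granule neuron maturation, was at 34.59, 35.83, 31.53 and 30.29 CPM at 1 day and at 39.79, 37.98, 37.81 and 38.51 CPM at 5 days. Its fold was 1.165 (1.06 to 1.281) with no overlap, beside a log2 fold change of -0.01 in the Dnmt3a2 libraries.

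Prom1, encoding the membrane protein prominin 1, was at 8.401, 7.92, 6.56 and 6.904 CPM at 1 day and at 6.114, 5.312, 5.527 and 5.129 CPM at 5 days, without overlap. Entpd2, an ectonucleotidase that breaks down ATP outside cells, was at 9.323, 13.38, 9.926 and 10.37 CPM at 1 day and at 7.617, 8.765, 8.274 and 9.219 CPM at 5 days, with all 5 day values below all 1 day values. Pcdhb14, a clustered protocadherin of neuronal adhesion, was at 5.996, 6.134, 5.255 and 5.343 CPM at 1 day and at 8.018, 8.566, 7.323 and 6.343 CPM at 5 days, again without overlap. The fold changes of these 3 were 0.7414, 0.7877 and 1.331.

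The other genes of the 20 were Kbtbd6, Prr36, Vwa3b, Nolc1, Macrod2 and Slc16a13, higher at 5 days, and Lime1, Hypk, Zfp219, Pdlim2, Mirg and Rnf126, lower at 5 days. Kbtbd6, an adaptor of a ubiquitin ligase, had the largest estimate at a fold of 1.723 (1.282 to 2.317), from means of 0.8045 and 1.39 CPM. Hypk, a small chaperone-like protein, had a fold of 0.6286 (0.4757 to 0.8305). The days overlapped for Lime1, Zfp219 and Mirg among the 20. All 20 were chosen for a small p on these same libraries, which favours separate days, and 2.4% of all genes tested had no overlap. The spans of Lime1, Hypk, Zfp219, Prr36, Rnf126, Entpd2, Neurod1 and Pcdhb14, among others, overlap another annotated gene, introns included. Their values are uncertain to the extent that reads were shared. The log2 fold change in the Dnmt3a2 libraries, which share no library with the control comparison, had the same sign for 18 of the 20. The exceptions were Neurod1 and Slc16a13. The sign was also the same for 63.6% of all genes tested and for 84.8% of those at an unadjusted p under 0.05 in control.

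**Figure D4:**
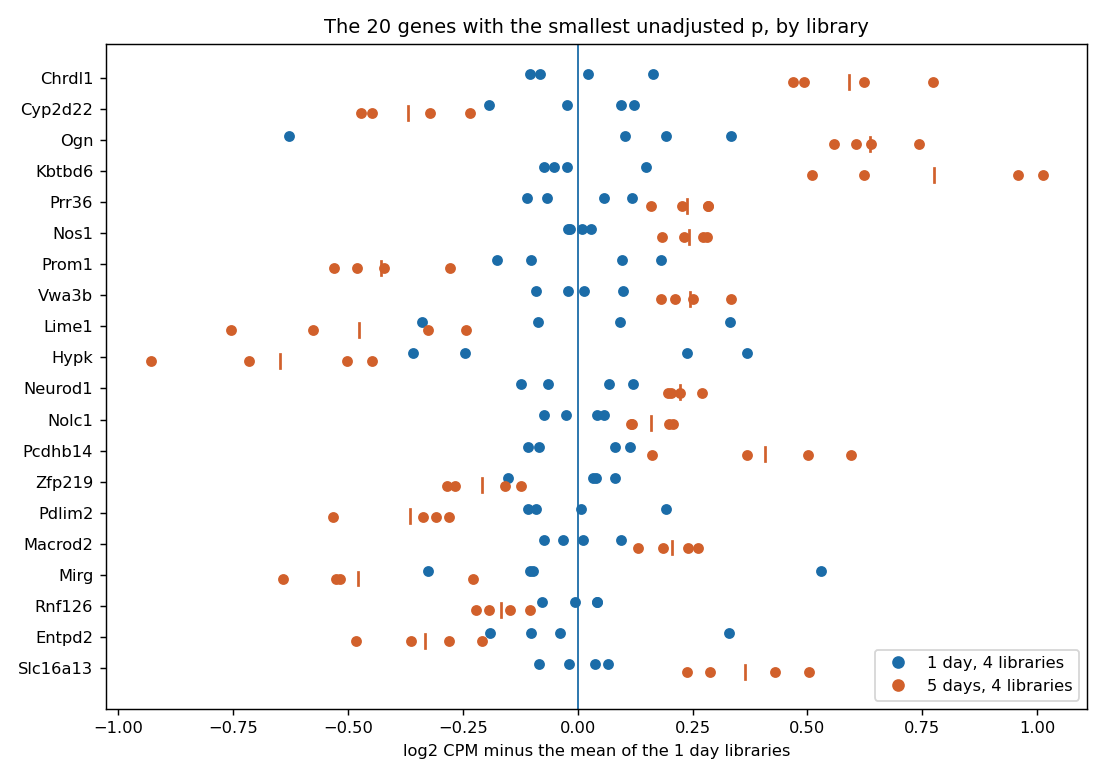
Points give log2 CPM of each control library minus the mean of the 4 libraries at 1 day, for the 20 genes with the smallest unadjusted p; blue is 1 day, orange is 5 days, and the orange tick is the 5 day mean. Lime1, Zfp219 and Mirg overlap between days and the other 17 do not, among genes chosen for a small p on these same libraries. Of all genes tested, 2.4% did not overlap.

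Mirg is a long noncoding RNA of the imprinted Dlk1-Dio3 region and spans chr12:109729764-109749460 on the plus strand. It was at 5.568, 5.595, 4.774 and 8.639 CPM at 1 day and at 5.112, 4.183, 3.838 and 4.159 CPM at 5 days, so 1 library at 5 days overlapped the 1 day range. The log2 fold change was -0.51 ± 0.16 (SE) in the control libraries and -0.50 ± 0.16 in the Dnmt3a2 libraries (edgeR adjusted p = 0.999 and 0.319). Meg3 and Rian, the other long noncoding RNAs read from this region, were chosen after their values were seen. Meg3 was at 306.8, 327.2, 253.0 and 516.8 CPM at 1 day and at 299.1, 339.6, 220.5 and 250.7 CPM at 5 days, and Rian at 235.5 to 265.2 and 216.6 to 245.9 CPM, both with overlap. For Mirg and Meg3 the highest library was Control_1d replicate 4.

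Mirg is shown by the microRNAs inside its span because these are the known products of that stretch. RefSeq places 26 mature microRNAs from 14 hairpins there, with 25 seeds. The sequences run 5′ to 3′, with the seed (bases 2 to 8) in capitals. These libraries did not measure mature microRNAs.
miR-134-5p: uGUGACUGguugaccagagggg
miR-382-5p: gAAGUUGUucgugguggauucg
miR-485-3p: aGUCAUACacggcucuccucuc
miR-453: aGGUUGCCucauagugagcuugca
miR-496a-5p: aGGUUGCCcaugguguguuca
The last pair share a seed, the only shared seed among the 26. Of these, miR-134-5p lies at chr12:109734145-109734166 and is known for limiting dendritic spine size.

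The immediate early genes overlapped between days. Of 38 measured genes, 0 were called and 0 reached an unadjusted p under 0.05, against 3.54% of all genes. Their median log2 fold change was -0.09 beside 0.0 for all genes, with 10 above 0 and 28 below, where all genes had 8449 above and 8450 below. The median was -0.038 without Control_1d replicate 4, -0.0476 without Control_1d replicate 2 and -0.055 without Control_1d replicate 1. In the other direction, the median was -0.107 without Control_1d replicate 3 and -0.0946 without Control_5d replicate 2. In the Dnmt3a2 libraries it was -0.09. Fos, Arc, Npas4 and, below, Bdnf and the clock genes named were chosen for their role, after their values were seen. Fos was at 6.556, 5.864, 4.706 and 8.015 CPM at 1 day and at 8.352, 6.009, 7.429 and 5.857 CPM at 5 days.

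Arc was at 175.4, 133.6, 119.0 and 243.9 CPM at 1 day and at 141.3, 159.9, 153.4 and 127.1 CPM at 5 days, with its widest values at 1 day. Npas4, an activity-dependent transcription factor, was at 3.986 to 7.044 CPM at 1 day and 4.681 to 6.689 CPM at 5 days. The 95% interval of the fold ran from 0.7321 to 1.652 for Fos, from 0.5001 to 1.498 for Arc and from 0.7173 to 1.456 for Npas4. Folds within those bounds were not excluded by these libraries. Bdnf, the neurotrophin, was at 29.21 to 34.16 CPM at 1 day and 32.14 to 39.38 CPM at 5 days. The clock genes Per1, Per2 and Dbp also overlapped, and 0 of 30 clock and clock-controlled genes were called. At an unadjusted p under 0.05 there was 1 of the 30, against 3.54% of all genes.

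Lists of receptor genes had medians of 0.03 to 0.06, and 0 of their members were called. Of 37 glutamate receptor genes, 24 were above 0 with a median of 0.06, and 3 reached an unadjusted p under 0.05, all higher, where 1.62% of all genes did. Without Control_1d replicate 4 the list had 19 above 0 and 18 below, with a median of 0.012. Gria1 was among the 3, at 1049 to 1133 CPM at 1 day and 1119 to 1214 CPM at 5 days, with overlap. Of 26 GABA and glycine receptor genes 21 were above 0 (median 0.06) and 3 reached that p, all higher, among them Gabra2, at 206.3 to 226.9 and 230.5 to 244.3 CPM without overlap. The count above 0 was 15 and the median 0.0115 without Control_1d replicate 4, whose score on this list was -0.187 against 0.02 to 0.05 in the other 1 day libraries. In the Dnmt3a2 libraries 28 of the 37 glutamate and 24 of the 26 GABA and glycine receptor genes were above 0. Of 33 monoamine and acetylcholine receptor genes, 25 were above 0 there and 20 in control.

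Of 46 postsynaptic and adhesion genes 31 were above 0 (median 0.03), and 2 were higher and 2 lower at an unadjusted p under 0.05. Over all genes 1.62% were higher and 1.92% lower at that p. Without Control_1d replicate 4 the list had 23 above 0 and 23 below, and its median was 0.0198 without Control_5d replicate 4 and 0.0494 without Control_5d replicate 3. Dlgap2, a scaffold of the postsynaptic density, was at 53.28 to 57.98 CPM at 1 day and 60.38 to 69.69 CPM at 5 days, without overlap. Shank3, another scaffold, was at 487.5 to 542.3 CPM and 424.6 to 501.7 CPM, with overlap. Chrm1, the M1 muscarinic receptor, was at 368.4 to 399.6 CPM and 408.3 to 419.1 CPM without overlap, and Adra2a, an adrenergic receptor, at 12.78 to 19.54 and 11.82 to 12.19 CPM without overlap. Of 57 clustered protocadherins 43 were above 0 (median 0.07) and 6 had an unadjusted p under 0.05, all higher, where 1.62% of all genes were higher at that p. Without Control_1d replicate 4 the count above 0 was 31 and the median 0.0349, and without Control_5d replicate 3 the median was 0.102. In the Dnmt3a2 libraries 46 of the 57 protocadherins and 27 of the 46 postsynaptic and adhesion genes were above 0.

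Of 78 cytosolic ribosomal protein genes 77 lay below 0, with a median log2 fold change of -0.10. Without Control_1d replicate 3 the count below 0 was 62 (median -0.0434) and without Control_1d replicate 4 it was 59 (median -0.0548), while without Control_1d replicate 1 all 78 were below 0 (median -0.157). In the Dnmt3a2 libraries 76 of the 78 were below 0 (median -0.13). In the control libraries 0 were called and 1, Rpl12, reached an unadjusted p under 0.05, where 1.92% of all genes were lower at that p. Rpl12 was at 20.82, 18.13, 22.29 and 15.89 CPM at 1 day and 13.2, 14.87, 15.03 and 9.878 CPM at 5 days. The library scores overlapped between days. They were -0.09, -0.045, 0.252 and 0.133 at 1 day and -0.107, -0.107, 0.082 and -0.119 at 5 days. Ribosomal protein genes have many processed pseudogenes, so single values such as that of Rpl12 are uncertain. Over all genes, the median log2 fold change was -0.02 in the fifth with the shortest summed exons and 0.02 in the fifth with the longest, and -0.03 and 0.03 in the Dnmt3a2 libraries. The part of exon length in the values of this list was not tested.

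Most markers of vessels were also below 0. Of 20 endothelial genes 19 were below 0 (median -0.19) and 1, Esam, an adhesion molecule of endothelial junctions, reached an unadjusted p under 0.05, where 1.92% of all genes were lower at that p. It was at 9.126, 9.471, 8.106 and 10.34 CPM at 1 day and at 6.916, 7.072, 8.907 and 5.927 CPM at 5 days, with overlap. Of 14 pericyte and smooth muscle genes 13 were below 0 (median -0.24) and 4 reached that p, all lower. Without Control_5d replicate 4 the medians were -0.119 for the endothelial and -0.147 for the pericyte and smooth muscle list. Myh11, the smooth muscle myosin, was at 5.864, 5.123, 3.538 and 6.766 CPM at 1 day and at 4.978, 3.652, 4.19 and 2.149 CPM at 5 days. The endothelial library scores were 0.248, 0.022, -0.131 and 0.233 at 1 day and 0.114, -0.118, -0.072 and -0.297 at 5 days, with overlap. In the Dnmt3a2 libraries 19 of the 20 endothelial genes and 11 of the 14 pericyte and smooth muscle genes were below 0.

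Single libraries also moved the counts for other cell types, to differing degrees. Of 23 choroid plexus genes 19 were above 0 (median 0.12), but 3 were above 0 without Control_5d replicate 3 (median -0.348). That median was 0.236 without Control_5d replicate 1, 0.26 without Control_5d replicate 4 and 0.383 without Control_1d replicate 4. Of 18 ependymal genes 10 were above 0, and 2 were without Control_5d replicate 3 and also 2 without Control_1d replicate 3, whose ependymal score was -1.095. For astrocytes 19 of 27 genes were below 0, and 25 were in the Dnmt3a2 libraries. With 1 control library left out the astrocyte count below 0 ran from 17 to 24. The astrocyte median was -0.03, and it was -0.022 without Control_5d replicate 1, -0.0541 without Control_5d replicate 4 and -0.0588 without Control_5d replicate 3. Aldoc, a glycolytic enzyme of astrocytes, was at 568.2, 588.9, 609.8 and 708.0 CPM at 1 day and at 542.5, 508.1, 585.2 and 566.9 CPM at 5 days, with overlap. For microglia 18 of 23 were below 0 (median -0.08), but 14 were without Control_1d replicate 1 (median -0.0104), and in the Dnmt3a2 libraries 8 were below 0 and 15 above. The microglia median was also -0.126 without Control_1d replicate 3 and -0.046 without Control_5d replicate 4. Tyrobp, an immune signalling adaptor, was at 12.63 to 13.58 CPM at 1 day and 9.054 to 12.11 CPM at 5 days without overlap. Of 27 interneuron genes 19 were above 0, and 12 were without Control_1d replicate 4 or without Control_5d replicate 1. In the Dnmt3a2 libraries 20 of the 27 were above 0, as were 22 of the 23 choroid plexus and 13 of the 18 ependymal genes. Single libraries stood apart there too. The choroid plexus genes summed to 1293 CPM in Dnmt3a2_1d replicate 1 and 1972 CPM in Dnmt3a2_5d replicate 1. The other Dnmt3a2 libraries had 193.5 to 347.6 CPM. No Dnmt3a2 library was left out in turn.

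The share of counts from the 13 mitochondrial mRNAs was 11.04% ± 1.208 (SD, n = 4) at 1 day and 11.05% ± 0.795 at 5 days. The difference of 0.00666 percentage points had an exact two-sided permutation p of 1.0 over 70 regroupings, where the smallest p possible is 0.0286.

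The day difference in the Dnmt3a2 libraries was set beside the control one. There too 0 of 16899 genes were called (edgeR), with 1822 at an unadjusted p under 0.05 (10.8%). The edgeR test of the difference between the 2 day effects also called 0 genes, with 360 at an unadjusted p under 0.05 (2.13%). DESeq2's Wald test of that difference called 1 gene, Gm10288 (adjusted p = 0.0154, against 1.0 with edgeR), named after its values were seen. It was listed at 0 in 9 of the 16 libraries and was at 0.79 to 7.9 CPM in the other 7. Of the 598 genes at that p in control, 507 (84.8%) had the same sign in the Dnmt3a2 libraries, against 63.6% of all genes tested. At that p in both virus groups there were 161 genes, 26.9% of the control list and 8.84% of the Dnmt3a2 list, and 159 of them had the same sign.

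The genes with the smallest larger p of the pair were chosen after their values were seen, and they include Lime1, Mirg, Usp11, Zcchc24, Cxcl12 and Akap5. Zcchc24 had means of 73.02 ± 4.789 and 62.74 ± 4.785 CPM at 1 and 5 days (SD, n = 4) without overlap, and log2 fold changes of -0.22 in control and -0.40 in Dnmt3a2. Cxcl12, a chemokine, had log2 fold changes of -0.26 and -0.30, and Akap5, an anchoring protein for kinases at the synapse, of 0.26 and 0.24. With the day effect averaged over both virus groups, a setting added once the data had been seen, edgeR called 0 genes and 2197 reached an unadjusted p under 0.05.

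**Figure D5:**
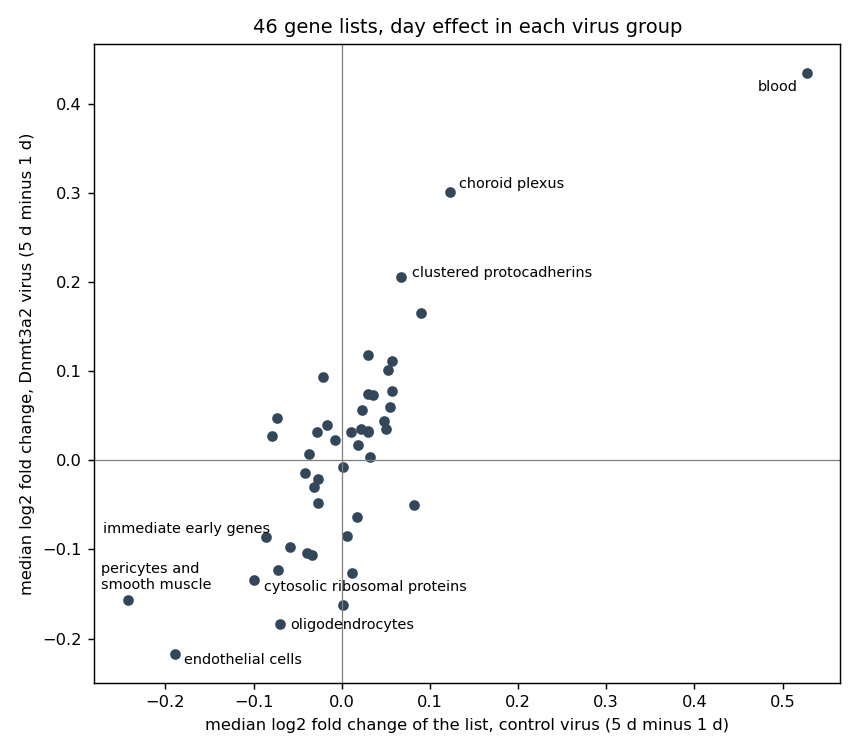
Each point is 1 of 46 gene lists, with the median log2 fold change of its members (5 days minus 1 day) in the control libraries on the x axis and in the Dnmt3a2 libraries on the y axis. Endothelial genes lie at -0.19 and -0.22 and clustered protocadherins at 0.07 and 0.21.

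The libraries of one day differed little for most genes. The SD of log2 CPM between libraries, after removing each day's mean, had a median of 0.117 over the 14218 genes averaging 1 CPM or more, and it passed 0.5 for 255 genes and 1 for 67. The 12 with the highest SD were Ighg1, Rps13-ps2, Ighg3, Gm45837, Gm4294, Gdf1, Fam205a2, Hist1h2ap, Gm12338, Ighv1-26, Hist1h2ao and Ighv3-6. Of these, Ighg1, an antibody heavy chain, was at 89.71 CPM in Control_1d replicate 1 and at 0.0 to 6.523 CPM in the other 7. The replication histone genes Hist1h2ap and Hist1h2ao and the pseudogene Rps13-ps2 have near-identical copies, and were listed at 0 in some libraries and at 1.746 CPM or more in others, Rps13-ps2 at 0.1056 CPM in 1; how the estimated counts were divided between such copies is uncertain.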

How the data were processed

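Bulk RNA of dorsal hippocampus was read in 16 libraries, 4 for each virus and day. Per the submitters' processing notes, Trim Galore 0.6.4, kallisto 0.4.6, edgeR 3.17 and build GRCm38.p6 were used. The sources used here do not give the annotation release or whether counting used strand. The authors deposited raw expected counts for 55385 gene identifiers, of which 26.2% of entries were fractional. Their deposited log2 values (CPM of 16907 genes) differed by at most 5.329e-15 from edgeR's log2 CPM after its filter and TMM scaling, and were used only for that check.

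In edgeR 4.0.16 (R 4.3.3) the rounded counts were passed through filterByExpr, which kept 16899 genes, and TMM factors were computed. A robust quasi-likelihood model with 1 coefficient for each of the 4 groups was fitted to the 16 libraries. Genes with a Benjamini-Hochberg adjusted p below 0.05 were called. Symbols, positions and exon lengths came from GENCODE M21, and 55144 identifiers were named. The script was tested on simulated data. Genes were named by this rule: called genes first, then the smallest unadjusted p with at least 1 CPM and an established symbol up to 20; up to 2 members each way of each list; the highest levels per kb; and the 12 highest SDs. Genes outside it are said to be so or serve to describe single libraries. The comparison, the 46 lists and their members were chosen with earlier results of these data known, and lists are described without a test. Control libraries totalled 28.6 to 29.9 M, so 1 CPM stands for 28.6 to 29.9 estimated counts. Control library pairs differed by a chi-square of 4.99 to 21.8 per gene, so none was a repeat. Alternatives were DESeq2 1.42.0, limma 3.58.1 (voom, and trend on log2(CPM + 1)), sva 3.50.0, other scalings, filters and thresholds, the replicate block, and leaving out libraries.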

Additional observations from a re-analysis of the deposited data

Results flagged for a closer look

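In 138 groups of 4 control libraries a single library lay far from the other 3 by Dixon's criterion in 14 cases, and chance flags about 1 in 20 groups. Many of the measures share genes or libraries, so the cases are not independent. Control_1d replicate 1 had 950 CPM of immunoglobulin RNA, against 47.1 to 77.6 CPM in the others of its day.

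Control_1d replicate 4 was low on 7 lists. Its scores on the log2 scale were -0.143 for interneurons, -0.108 for memory kinases, phosphatases and transcription factors, -0.124 for glutamate receptors, -0.187 for GABA and glycine receptors, -0.11 for monoamine and acetylcholine receptors, -0.116 for potassium channels and -0.096 for postsynaptic density and adhesion. The other 3 libraries of that day lay between -0.001 and 0.05 on these lists. Control_1d replicate 2 scored 0.013 on heat shock genes, against -0.005 to -0.002.

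At 5 days, Control_5d replicate 4 scored -0.281 on meninges and fibroblast markers, against 0.107 to 0.131. Control_5d replicate 3 scored -0.02 on glutamate receptors (others 0.029 to 0.038), 0.0 on glucocorticoid-responsive genes (others -0.063 to -0.055), 0.217 on reactive glia and inflammation (others -0.137 to -0.093) and 0.082 on cytosolic ribosomal proteins (others -0.119 to -0.107).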

How the results depend on the processing

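Calls of day differences in control, at an adjusted p under 0.05, stayed at 0 in each direction under every alternative run. The smallest adjusted p was 0.0677 with DESeq2's Wald test, and 0.0847 with edgeR for the day effect averaged over both virus groups. DESeq2's Wald test called 1 gene (Gm10288) for the difference between viruses, where edgeR called 0. With 1 library left out the genes at an unadjusted p under 0.05 ranged from 377 to 996. No pairing by replicate number was seen in correlations: same-numbered libraries correlated at -0.0778 to 0.0559, and 0 of 8 libraries correlated best with their own number. Sharing limited to some genes was not tested, and antibody RNA was high in replicate 1 of Control_1d and of both Dnmt3a2 groups. The fit with the replicate block called 0 genes, 764 at an unadjusted p under 0.05, and the block left the mitochondrial difference at 0.00666 points (exact sign-flip p = 1.0, smallest possible 0.125). That difference was -0.0392 points with all mitochondrial genes, and ran from -0.512 to 0.36 with 1 library left out. With 1 library left out the log2 change took both signs for Dnmt3a (-0.0192 to 0.0489), Per1 (-0.0588 to 0.00786), Arc (-0.342 to 0.0274), Camk2a (-0.00464 to 0.0549), Ifit1 (-0.0724 to 0.46), Isg15 (-0.329 to 0.229), Egr1 (-0.125 to 0.053), Npas4 (-0.108 to 0.149), Kdm5d (-0.286 to 0.158), Ttr (-0.7 to 2.57), Jchain (-1.47 to 1.32), Uty (-0.267 to 0.168), Ddx3y (-0.358 to 0.0913), Ifit3 (-0.208 to 0.207), Igkc (-1.5 to 1.54), Ighg2b (-1.55 to 2.32). Without Control_1d replicate 1 and Control_5d replicate 3 together the sign reversed, to 0.0275 for Per1, 0.0752 for Egr1, -0.179 for Npas4, 0.00164 for Per2, 0.198 for Kdm5d, -0.947 for Ttr, 1.35 for Jchain, 0.162 for Uty, 0.0806 for Ddx3y, 0.223 for Ifit3, 1.26 for Igkc, 1.57 for Ighg2b. Averaged over both virus groups the sign reversed, to -0.0495 for Camk2a, -0.0273 for Ifit1, 0.19 for Isg15, 0.0455 for Egr1, -0.0552 for Npas4, 0.0259 for Kdm5d. With the replicate block the sign reversed, to 0.054 for Isg15, 0.22 for Jchain, 0.641 for Igkc, 0.875 for Ighg2b. With limma-voom the sign reversed, to 0.032 for Isg15, 0.122 for Jchain, 0.282 for Igkc, 0.437 for Ighg2b. With 1 surrogate variable the sign reversed, to 0.0025 for Ifit3. With limma-trend the sign reversed, to 0.248 for Igkc, 0.391 for Ighg2b. None of these changes was called in any setting, and the cause was not tested. The 20 genes of smallest p, which were chosen for it, and the list members named for their p kept their sign in every setting. The interaction could not be fitted with the 8 control libraries alone. At 1 to 10 CPM the intervals are wider, and for part of these genes they reached past 1.5-fold.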
